A study of Rattus norvegicus with 30 samples.

Results

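The natriuretic peptide system of the rat heart was represented by 7 genes, namely the peptide genes Nppa, Nppb and Nppc, the receptor genes Npr1, Npr2 and Npr3, and the protease gene Corin. Its members were taken from the normalised expression tables by gene symbol, and every row that carried one of these symbols was kept. The members were chosen with earlier results of these data known. The 7 genes occupied 10 rows of the 27408 in the 8-week table, the 27383 in the 21-week table and the 26553 in the 78-week table. Expression was measured in hearts of untreated Fischer 344 (F344) rats, an inbred strain, with 1 single-colour Agilent array of 60-base probes per rat. Each of 3 ages, 8 weeks (young), 21 weeks (adult) and 78 weeks (old), had 5 females and 5 males, 30 rats in all, and no group carried a transgene or received a treatment. Each heart was ground to powder, and the study does not state which chambers were kept. A lower level in these samples could come from fewer cells of a type or from less RNA per cell, which cannot be told apart in such bulk RNA. The study was designed to compare the sexes within an age.

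Atrial natriuretic peptide, encoded by Nppa, and B-type natriuretic peptide, encoded by Nppb, are hormones that heart muscle cells release when they are stretched. They bind the receptor encoded by Npr1, which makes cyclic GMP, and so promote salt excretion and relax vessels, while C-type natriuretic peptide, encoded by Nppc, acts mainly through the receptor encoded by Npr2. The product of Npr3 clears all these peptides from the circulation, and corin is the cell-surface protease that cuts the precursor of atrial natriuretic peptide to its active form. In the adult heart Nppa is mainly an atrial gene, and Nppa and Nppb are widely used as markers of load on the ventricle.

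The probes that carried the values below are shown because the tables gave Nppa, Nppb and Npr1 more than 1 row each, and the rows of a gene did not read the same strand. Coordinates are those of the scanner files in the rat build rn3. The probe of the main Nppa row, printed on the array at 10 spots, lay at chr5:165084824-165084883 on the plus strand and was assigned to the RefSeq transcript of Nppa. The second row listed as Nppa came from 1 spot at chr5:165085763-165085822 on the minus strand, 879 bases beyond the first probe, and the scanner file gave it no gene name. The Nppb probe lay at chr5:165073752-165073811 on the plus strand, and a second Nppb row averaged a pair of overlapping minus-strand probes 680 bases upstream. The first 30 bases of these 3 probes, and the whole coding-sequence probes of Npr3 (chr2:61211800-61211859, minus strand) and Corin (chr14:38341648-38341707, plus strand), read 5′ to 3′ as follows, with no part marked.
Nppa, main row: gccttttggctcccaggccatattggagca
Nppa, second row: cacctctcagtggcaatgcgaccaagctgt
Nppb, main row: tgttgctgattttctacaagactgtttctt
Npr3: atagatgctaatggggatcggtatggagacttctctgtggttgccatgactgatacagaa
Corin: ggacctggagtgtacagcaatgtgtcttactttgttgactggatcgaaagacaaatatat

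Nppa and Nppb are neighbours on chromosome 5, and in the RefSeq annotation of the build GRCr8 the end of Nppb lies 10869 bases from the start of Nppa. Their upstream sequences are shown because the pair is transcribed in the same direction, and their values can be read side by side. RefSeq promoter entries were matched for 6 of the 7 genes, with Npr2 the exception. Each run ends at the annotated start of its gene, at chr5:163711934-163712183 for Nppa and chr5:163699758-163699954 for Nppb, both on the plus strand. Capitals mark GATAA or its reverse TTATC, the letters bound by GATA factors, TATAAA on the plus strand, and CATTCC or its reverse GGAATG, known as the M-CAT motif. None of the marked motifs overlapped another.
Nppa: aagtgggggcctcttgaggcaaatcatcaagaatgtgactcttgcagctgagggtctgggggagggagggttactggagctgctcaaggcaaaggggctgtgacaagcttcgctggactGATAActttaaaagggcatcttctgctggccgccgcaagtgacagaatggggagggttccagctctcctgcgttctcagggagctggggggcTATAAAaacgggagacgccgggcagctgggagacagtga
Nppb: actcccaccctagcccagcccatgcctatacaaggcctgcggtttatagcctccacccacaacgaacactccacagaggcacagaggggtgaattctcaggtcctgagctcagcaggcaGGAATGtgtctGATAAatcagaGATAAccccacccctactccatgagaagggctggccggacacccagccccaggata
The 250-base window of Nppa held 1 GATAA, and a TATAAA that ended 33 bases before the gene's start. That of Nppb held 3 GATAA, 2 of them within the printed run, and 1 GGAATG. Of all 33469 rat promoters in the table, 23.5% held GATAA on either strand in the same window, 8.06% held TATAAA and 12.1% held the M-CAT letters. The windows of Npr1, Npr3 and Corin held none of the 3 motifs, and that of Nppc held a TATAAA. Those of Npr1, Npr3 and Corin lay inside the annotated span of the gene, not upstream of its outer start. These matches describe the letters alone and say nothing of binding in these hearts.

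The values of an age are given as relative signal, scaled within each rat. The unit is the 75th percentile of the rows kept in that age's table, so that a value of 1 is that percentile. The arrays lay on 8 slides that each held both sexes, with males and females at different array positions throughout, so that position and sex cannot be told apart. The 75th percentile of the raw processed signal ranged from 39.9 to 171, and between 17182 and 24290 of 43379 non-control spots were well above background. The weakest array was male replicate 2 at 21 weeks. Replicates carry only a number in the labels, and p-values measure the spread between these samples. On 2 arrays of 78 weeks, labelled female replicate 2 and male replicate 3, the Y-linked genes Ddx3y and Eif2s3y had values typical of the opposite sex. The labels were not changed. Sex differences of members at that age are given with and without this discordant pair, apart from Nppc and the second Npr1 row. Marker and list values include both arrays unless stated otherwise. Sexes were compared on log2 values with limma, differences are female minus male ± standard error (SE), and p-values were adjusted by Benjamini and Hochberg's method over all rows of the table.

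Nppa had almost the same level in both sexes at 8 weeks, and at 78 weeks it tended higher in males, without passing the adjusted threshold. At 8 weeks the relative signals were 167.6, 143, 177.5, 168.5 and 152.6 in females and 148.1, 164.4, 177.8, 183.6 and 130 in males. The groups overlapped throughout, and the difference of 0.02 ± 0.11 was smaller than its error (limma adjusted p = 0.996). At 21 weeks the signals were 140.4, 194.3, 195.4, 195.6 and 192.4 in females and 186.5, 185.4, 266.9, 250.1 and 148 in males. One female lay well below the other 4 females, 2 males lay above every female, and the difference was -0.15 ± 0.19 (limma adjusted p = 0.645).

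At 78 weeks the Nppa signals were 207.8, 213.6, 137.8, 140.9 and 166 in females and 284.3, 254.4, 158.7, 257.2 and 319.2 in males. Of the males, 4 lay above all females, and the fifth was one of the discordant arrays. The difference was -0.54 ± 0.21, or 1.46-fold higher in males (exact permutation of the sex labels, two-sided as in all such tests here, p = 0.0476, limma adjusted p = 0.856). Without the discordant arrays, females spanned 138 to 208 and males 254 to 319, with no overlap. The difference was then -0.79 ± 0.16, or 1.73-fold, with an exact p = 0.0286, the smallest that the 70 assignments of 4 against 4 rats allow, and a limma adjusted p = 0.317. Of all rows, 6.94% did not overlap between these groups of 4. With all arrays kept, the mean female value was lower than the male one within each of the 3 slides of this age, by 0.21 to 0.89 on the log2 scale. Both discordant arrays lay on the same slide. Leaving out 1 rat at a time moved the difference between -0.71 and -0.45.

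Bright spots of Nppa came close to the limit of the scanner. On the array of male replicate 5 at 78 weeks, the highest of all, 6 of the 10 Nppa spots were saturated, so that its 319.2 may understate the level there. No other array had a saturated spot of Nppa, and no spot of Npr1, also printed 10 times, was saturated on any array. Across the 10 spots of an array the standard deviation (SD) of Nppa had a median of 0.05 and a maximum of 0.21 on the log2 scale, against 0.06 and 0.13 for Npr1.

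Markers of atrial muscle were measured beside Nppa, since the share of atrium in a heart sample can vary. Of the 10 atrial genes listed, 9 were measured at 78 weeks, none passed the test between the sexes, and the median of their differences was -0.02. Their summed relative signal, on the scale described below for the ages, was 1014 to 1291 in females and 1098 to 1290 in males, and 8 of the 9 were well above background on every array of both groups. The defining genes Myl7 and Myl4, atrial myosin light chains, differed by 0.00 and 0.00 between the sexes at that age, and Sln, the atrial calcium pump regulator sarcolipin, by -0.37 ± 0.28. Another list moved in the same direction as Nppa. Of the 6 macrophage genes listed, all 5 measured were lower in females, by 0.33 to 0.67. At an unadjusted limma p under 0.05 were 4 of them, against 5.65% of all rows, and none passed after adjustment. Their sums were 6.39 to 8.32 in females and 8.43 to 13.5 in males. The part of these cells in the Nppa values was not tested.

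The second Nppa row behaved differently from the first. Its signals at 8 weeks ranged from 0.24 to 0.369 in females and from 0.177 to 0.429 in males. At 21 weeks females lay between 0.328 and 0.486 and males between 0.296 and 1.36, and at 78 weeks all 10 rats lay between 0.324 and 0.415. The differences were 0.19 ± 0.24, -0.43 ± 0.38 and 0.02 ± 0.09, and none passed the test (limma adjusted p = 0.964, 0.526 and 0.98). Without the discordant arrays the 78-week difference was 0.0034 ± 0.12 (limma adjusted p = 0.996). The main row is meant wherever Nppa is named without qualification.

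Nppb was lower in females than in males at each age by its mean, by less than the adjusted threshold requires. At 8 weeks the signals were 70.3, 73.3, 86.7, 83.7 and 87.3 in females and 98.3, 81.1, 103.8, 91.8 and 91 in males. Of the males, 4 lay above every female, and the difference was -0.22 ± 0.09, 1.16-fold (exact permutation p = 0.0476, limma adjusted p = 0.861). Fibroblast markers at that age summed to 317 to 364 in females and 373 to 425 in males, with 2 of 6 at an unadjusted p under 0.05, and red cell markers to 27.1 to 43.8 and 38.4 to 61.3, with 3 of 5 at that level. Of all rows, 5.74% reached that level. None of these markers passed the test, and their part in the Nppb values was not tested. At 21 weeks the Nppb signals were 70.2, 116.1, 108.4, 91.3 and 89.1 in females and 121, 180, 116, 108 and 168 in males. Here 3 males exceeded all females, and the difference was -0.54 ± 0.20, 1.45-fold (exact permutation p = 0.0397, limma adjusted p = 0.28).

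At 78 weeks the Nppb signals were 100.3, 110.9, 96.1, 45.6 and 100.3 in females and 140.3, 135.5, 82.4, 142.1 and 123.4 in males. Of the males, 4 again lay above every female, and the lowest male was discordant. The difference was -0.50 ± 0.26, 1.41-fold (exact permutation p = 0.0635, limma adjusted p = 0.856). Without both discordant arrays females spanned 45.6 to 100.3 and males 123.4 to 142.1, with no overlap, as for 6.94% of all rows. The difference was then -0.73 ± 0.26, 1.66-fold (exact permutation p = 0.0286, the smallest that 4 against 4 rats allow, limma adjusted p = 0.526). Female replicate 4, at 45.6, weighed on that value, and leaving out 1 of the 10 rats at a time moved the difference over all rats between -0.64 and -0.27. With all arrays kept, the mean female value was below the male one within all 3 slides at each of the 3 ages. At 78 weeks the within-slide differences ran from -0.96 to -0.0151, and both discordant arrays lay on the same slide. The second Nppb row, from probes of the opposite strand, gave -0.23, -0.43 and -0.38 at the 3 ages, with limma adjusted p-values of 0.935, 0.433 and 0.856. Without the discordant arrays its 78-week difference was -0.41 ± 0.27 (limma adjusted p = 0.714).

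**Figure D1:**
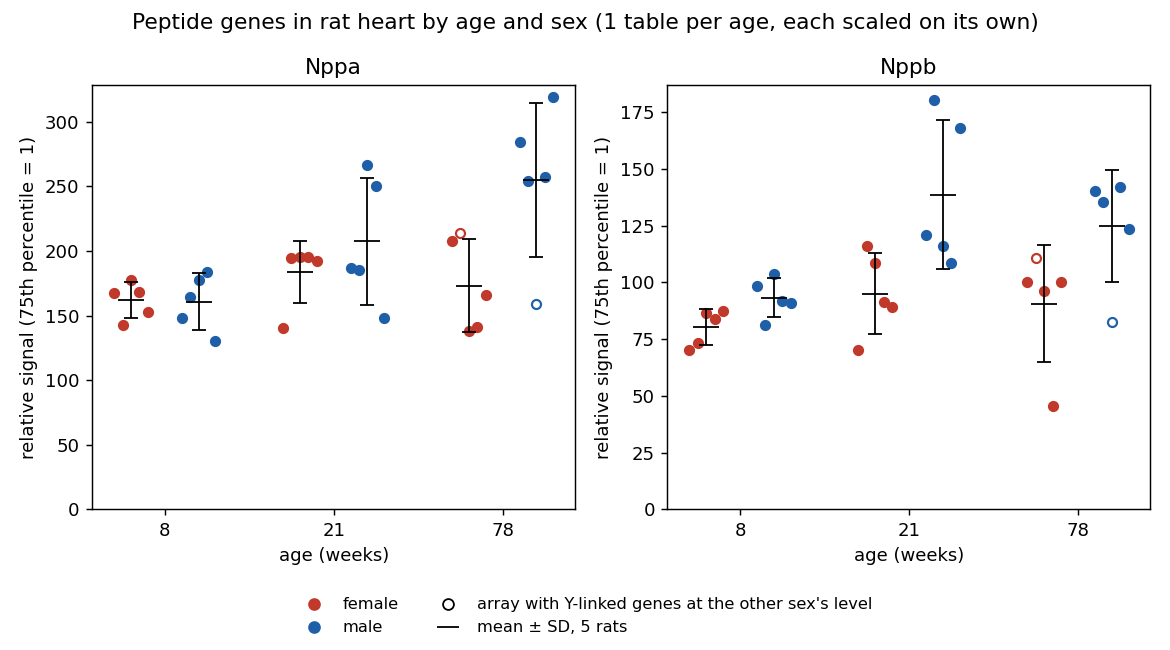
Relative signal of Nppa (left) and Nppb (right) in each rat by age in weeks, females in red and males in blue, with group mean ± SD (n = 5). Open points mark the 2 discordant arrays of 78 weeks, with Nppa at 213.6 (labelled female) and 158.7 (labelled male). Without them the sexes of that age do not overlap for either gene, as for 6.94% of all rows.

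Nppc, the gene of C-type natriuretic peptide, was near the limit of the arrays. Its single row was well above background on 3 of 30 arrays, 1 male at 8 weeks and 2 females at 78 weeks, and its relative signals lay between 0.0104 and 0.0732. No fold is given for it.

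Of the receptor genes, Npr1 and Npr2 were well above background on every array, and neither passed the test between the sexes at any age. Npr1, the guanylyl cyclase receptor of the atrial and B-type peptides, gave 7.73, 7.38, 7.44, 7.35 and 7.19 in 8-week females and 8.28, 8.2, 8.77, 7.87 and 7.36 in 8-week males. Males were higher in 4 of 5 rats, and the difference was -0.12 ± 0.06 (exact permutation p = 0.0317, limma adjusted p = 0.911). At 21 weeks the mean pointed the other way. Females gave 6.03, 5.8, 5.38, 6.13 and 7.17 and males 5.59, 4.24, 5.88, 5.64 and 4.99, a difference of 0.22 ± 0.14 (exact permutation p = 0.0873, limma adjusted p = 0.401). At 78 weeks females ranged from 5.7 to 6.78 and males from 5.89 to 6.92, with a difference of 0.03 ± 0.09 that became -0.02 ± 0.11 without the discordant arrays. The second row of Npr1, an opposite-strand probe 107 bases away, was dim and passed no test.

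Npr2, the receptor of C-type natriuretic peptide, was higher in females by its mean at all 3 ages. At 8 weeks females ranged from 3.65 to 4.12 and males from 3.61 to 3.83, a difference of 0.06 ± 0.06 (limma adjusted p = 0.941). At 21 weeks females gave 3.6, 3.64, 3.3, 4.42 and 4.04 and males 3.16, 2.45, 3.49, 3.23 and 2.95. Of the females, 4 lay above all males, and the difference was 0.32 ± 0.14, 1.25-fold (exact permutation p = 0.0159, limma adjusted p = 0.309). At 78 weeks females gave 3.93, 3.58, 4.3, 3.9 and 4.36 and males 3.65, 3.66, 3.9, 3.41 and 3.66, a difference of 0.13 ± 0.09 (limma adjusted p = 0.856). The lowest female and the highest male were the discordant arrays. Without them the groups no longer overlapped, as was the case for 6.94% of all rows. The difference was then 0.20 ± 0.10 (exact permutation p = 0.0286, the smallest that 4 against 4 rats allow, limma adjusted p = 0.65).

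Npr3, the clearance receptor, overlapped between the sexes at each age. Females ranged from 0.313 to 0.406 and males from 0.256 to 0.435 at 8 weeks, and from 0.301 to 0.388 and 0.161 to 0.384 at 21 weeks. At 78 weeks females ranged from 0.388 to 0.536 and males from 0.406 to 0.608. The differences were -0.05 ± 0.15, 0.21 ± 0.25 and -0.15 ± 0.14, and the 21-week one turned to -0.15 with normexp background correction and to -0.12 with the raw median signal. None passed the test (limma adjusted p = 0.988, 0.631 and 0.876). Without the discordant arrays the 78-week difference was -0.25 ± 0.15 (limma adjusted p = 0.682).

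Corin was the only member whose sexes did not overlap with all 10 rats of an age, and this was at 21 weeks. Females gave 1.73, 1.64, 1.7, 1.38 and 1.5 and males 1.24, 0.826, 1.33, 1.29 and 0.758. Every female lay above every male, and the difference was 0.58 ± 0.19, 1.5-fold higher in females (exact permutation p = 0.00794, the smallest that 5 against 5 rats allow). Its limma adjusted p of 0.277 did not pass the threshold. At that age 4.05% of all rows did not overlap, against 1.41% at 8 weeks and 0.9% at 78 weeks. Leaving out 1 rat at a time moved the Corin difference between 0.46 and 0.66. At 8 weeks females ranged from 1.39 to 1.96 and males from 1.32 to 1.78, a difference of 0.09 ± 0.11 (limma adjusted p = 0.962). At 78 weeks 1 female stood at 2.94 and the other 9 rats lay between 1.33 and 1.78, and the difference of 0.17 ± 0.19 (limma adjusted p = 0.896) was -0.00 without that female. Without the discordant arrays it was 0.25 ± 0.19 (limma adjusted p = 0.76).

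The 21-week arrays as a whole differed between the sexes, and the median difference over all rows was -0.14. The raw 75th percentile was 82.7 to 123 in females and 39.9 to 105 in males of this age. Spots well above background numbered 20505 to 22851 and 17182 to 22189. The part of array brightness in the member differences at this age was not tested. Quantile normalization, which forces the arrays to the same distribution, left Corin at 0.58, Npr1 at 0.26 and Npr2 at 0.35 but moved Nppb to -0.30 and Nppa from -0.15 to 0.12. With normexp background correction Corin was 0.37 and with the raw median signal it was 0.38. Genes of heart muscle split at this age in the same samples, although none of the 7 measured passed the test. Ttn, Ryr2 and Myh6, which encode titin, the ryanodine receptor and alpha myosin heavy chain, had differences of 0.72, 0.75 and 0.74, while Actc1 and Tnnt2, which encode cardiac actin and troponin T, had -0.51 and -0.44. Atrial markers summed to 1139 to 1491 in females and 1369 to 2353 in males, on the scale described below for the ages. Ventricular markers summed to 886 to 1191 and 1000 to 2089, and endothelial markers to 99.3 to 135 and 59.4 to 106. The part of these genes and cells in the values of Corin, the peptides and the receptors was not tested.

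No member passed the adjusted threshold of 0.05 between the sexes, with 0 of 7 genes at each of the 3 ages. Of all rows, 0.102%, 0.0511% and 0% passed in young, adult and old rats, and 0.034% in old rats without the discordant arrays. At an unadjusted p under 0.05, Nppb was the member at 8 weeks, Nppb, Nppc, Npr2 and Corin were those at 21 weeks, of which Nppc was not above background, and Nppa was the one at 78 weeks. The shares of all rows at that level were 5.74%, 15.9% and 5.65%, and 8.39% at 78 weeks without the discordant arrays, where Nppa and Nppb were the members that reached it.

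**Figure D2:**
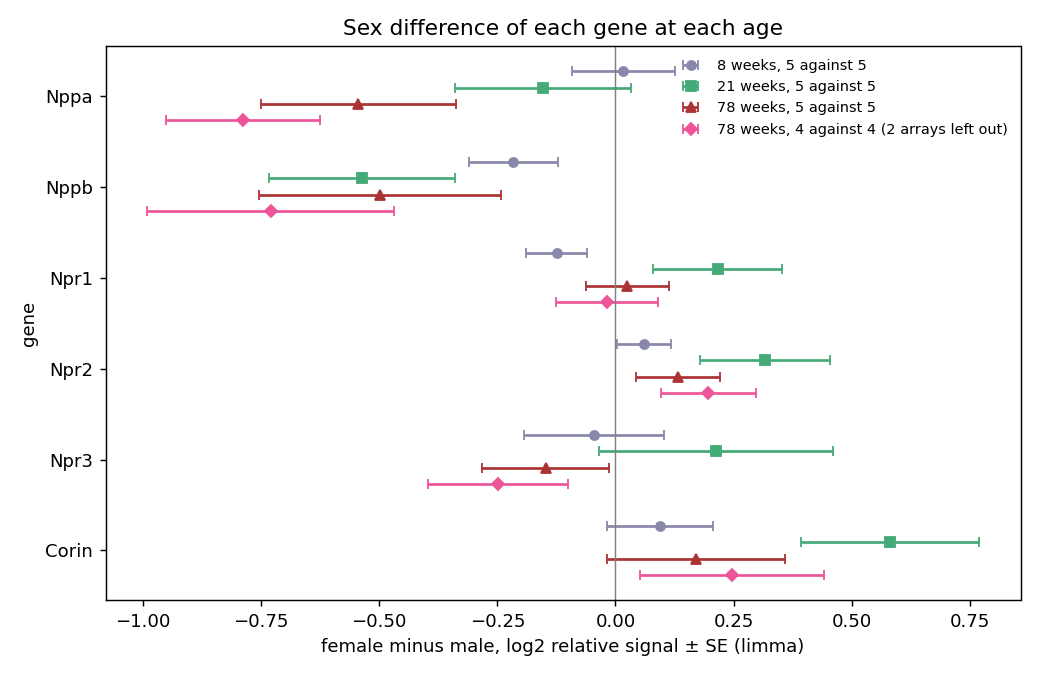
Female minus male difference in log2 relative signal ± SE from limma for each gene at 3 ages (5 against 5 rats) and in old rats without the discordant arrays (4 against 4). Nppb lies left of 0 at every age (-0.22, -0.54 and -0.50), Nppa moves from 0.02 to -0.54, and Corin at 21 weeks lies at 0.58, while none passed the adjusted threshold.

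Whether the sex difference itself changed with age was tested as an interaction over all 30 arrays. No member passed in any of the 3 pairs of ages, against 0%, 0.00347% and 0.00347% of all rows for 78 against 8, 21 against 8 and 78 against 21 weeks. At an unadjusted p under 0.05 the shares were 3.08%, 13.9% and 14.5%. The change of the Nppa difference from 8 to 78 weeks was -0.55 ± 0.24 (limma unadjusted p = 0.0302, adjusted p = 1), and -0.80 ± 0.22 without the discordant arrays (unadjusted p = 0.00138, adjusted p = 0.584). From 8 to 21 weeks the differences of Npr1, Npr2 and Corin changed by 0.34 ± 0.12, 0.26 ± 0.12 and 0.49 ± 0.24, with adjusted p-values of 0.323, 0.359 and 0.358. A difference at one age and not at another was therefore not shown to depend on age for any of these genes.

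**Figure D3:**
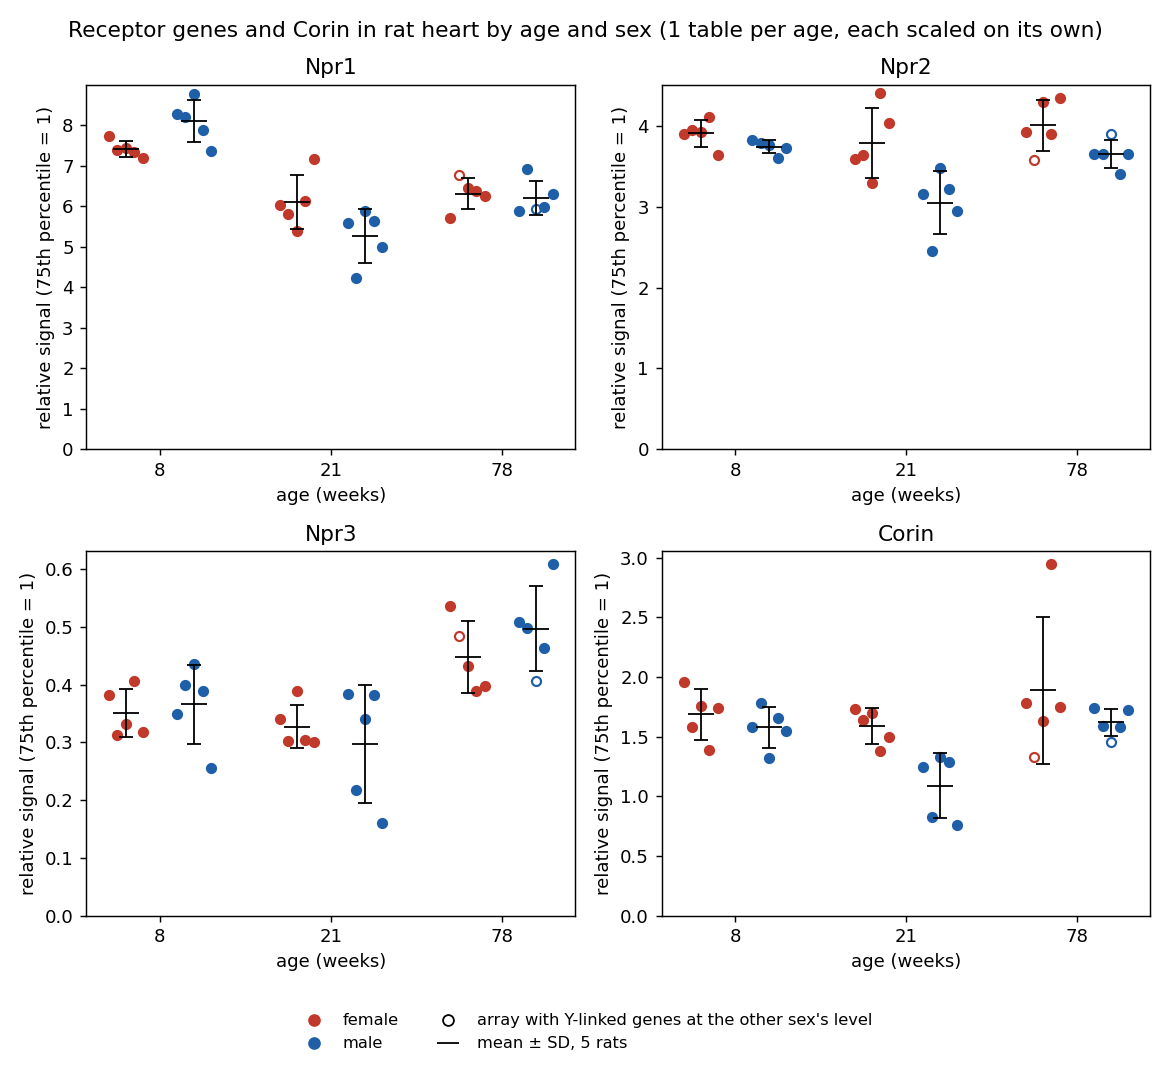
Relative signal of Npr1, Npr2, Npr3 and Corin in each rat by age in weeks, females in red and males in blue, with group mean ± SD (n = 5) and open points for the 2 discordant arrays of 78 weeks. Corin at 21 weeks is the only panel and age where all females (1.38 to 1.73) lie above all males (0.758 to 1.33).

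The ages were compared on values rebuilt from the scanner files for all 30 arrays, because the table of each age was scaled on its own. These values were divided by the 75th percentile of all non-control spots of the array, so that they are higher than those of the tables and are given as whole-array signal. Rats of 21 weeks shared no slide with another age, and 1 slide alone held rats of 8 and of 78 weeks, so that age and slide cannot be told apart for any comparison with 21 weeks and only in part for 78 against 8 weeks. The 8-week arrays were all scanned on one day and the 21-week arrays all on another, while of the 78-week arrays 6 were scanned with the former and 4 with the latter. Fits with scan day as a fixed block, and fits within the 1 scan day that held both ages, were added after seeing the data. With scan day as a block, the day effect is estimated from the 78-week arrays alone, the only ones scanned on both days. The study ran the ages as separate batches and did not evaluate age. Over all 28825 features tested, the median differences were 0.17 for 21 minus 8 weeks, 0.06 for 78 minus 8 weeks and -0.11 for 78 minus 21 weeks.

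Between 8 and 78 weeks the transcripts of Nppa and Npr3 rose and that of Npr1 fell, while those of Nppb, Npr2 and Corin did not pass the test. By transcript rows 3 of the 7 genes passed, and 2 with the second row in place of the first for Nppa, while 12.6% of all features did. In order of its mean whole-array signal, Nppa was 257 ± 33.5 (SD, n = 5) in 8-week males, 261 ± 20.9 in 8-week females, 300 ± 39.4 in 21-week females, 301 ± 61.9 in 78-week females, 335 ± 74.3 in 21-week males and 437 ± 101 in 78-week males. Neighbours in this order differed by less than the SD of the higher group, apart from the last pair, whose difference about equalled it. The mean log2 signal went from 8.02 at 8 weeks to 8.21 at 78 weeks in females, and from 7.99 to 8.73 in males. The difference of 78 minus 8 weeks over both sexes was 0.46 ± 0.12, 1.38-fold (limma adjusted p = 0.0107), and 0.50 without the discordant arrays. Under quantile normalization it was 0.36 with an adjusted p of 0.151. On the 1 slide that held both ages, Nppa was 246 and 365 in the females of 8 and 78 weeks and 210 and 488 in the males, a log2 difference of 0.57 and of 1.22 with 1 rat per age and sex. Slide as a fixed block gave 0.89 (adjusted p = 0.226), in a fit whose age difference rests on those same rats of 1 slide. Scan day as a fixed block gave 0.42 (adjusted p = 0.0399), and the rats of 1 scan day alone 0.44 (adjusted p = 0.0305).

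Npr3 was higher in old rats of both sexes. Its whole-array signal was 0.564 ± 0.0641 (SD, n = 5) in 8-week females and 0.584 ± 0.108 in 8-week males, 0.534 ± 0.0628 and 0.478 ± 0.158 at 21 weeks, and 0.778 ± 0.109 and 0.851 ± 0.121 at 78 weeks. Rats of 78 weeks, which ranged from 0.683 to 1.03, overlapped only slightly with those of 8 weeks, which ranged from 0.413 to 0.695. The difference of 78 minus 8 weeks was 0.51 ± 0.13, 1.42-fold (limma adjusted p = 0.00893), and the within-slide differences were 0.88 in females and 1.08 in males. With slide as a fixed block it was 0.98 (adjusted p = 0.0312), and Npr3 was the only member that passed in that fit. The age difference of that fit comes from the same within-slide pairs and is not a separate result. With scan day as a block the Npr3 difference was 0.51, and within 1 scan day it was 0.53 (adjusted p = 0.0217 and 0.00315). Normexp background correction and the raw median signal gave 0.28 and 0.32.

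Npr1 fell by 0.20 ± 0.06 from 8 to 78 weeks, 1.15-fold (limma adjusted p = 0.029). Its whole-array signal was 12 ± 0.329 (SD, n = 5) and 12.9 ± 0.805 in females and males of 8 weeks and 11 ± 0.61 and 10.6 ± 0.687 at 78 weeks. The within-slide differences were -0.21 and -0.23, but the call was lost under quantile normalization (-0.19, adjusted p = 0.0641), with slide as a fixed block (-0.22, adjusted p = 0.515), with scan day as a fixed block (-0.20, adjusted p = 0.0541), and without female replicate 1 or male replicate 3 of 8 weeks, or female replicate 1, male replicate 1 or male replicate 3 of 78 weeks (adjusted p = 0.0513 to 0.0589). Within 1 scan day it passed (adjusted p = 0.0212). Nppb differed by 0.36 ± 0.14 (limma adjusted p = 0.098). Its values were 129 ± 12.3 and 149 ± 13.4 at 8 weeks in females and males, 155 ± 29.1 and 225 ± 57.5 at 21 weeks, and 157 ± 43.9 and 214 ± 44 at 78 weeks (SD, n = 5). Without female replicate 4 of 78 weeks, or without male replicate 3, the adjusted p of Nppb was 0.0061 and 0.0391, and under normexp correction it was 0.0475. With scan day as a block Nppb did not pass (0.44, adjusted p = 0.0663), and within 1 scan day it did (0.44, adjusted p = 0.00836). The second Nppb row differed by 0.56 ± 0.17 (adjusted p = 0.03), and that call was lost without any of 7 of the 30 rats (adjusted p up to 0.067) and with scan day as a block (adjusted p = 0.0688). Npr2 and Corin differed by 0.10 ± 0.06 and 0.19 ± 0.12 (limma adjusted p = 0.292 and 0.324).

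For 21 against 8 weeks 48.2% of all features passed, so a call of a member at that pair of ages says little about the member. Npr1 differed by -0.44 ± 0.06, 1.36-fold lower at 21 weeks (limma adjusted p = 4.3e-06), and by -0.58 under quantile normalization. Npr2 and Corin differed by -0.16 ± 0.06 and -0.31 ± 0.12 (adjusted p = 0.0375 and 0.0345). Nppb differed by 0.41 ± 0.14 (adjusted p = 0.0212), which became 0.01 under quantile normalization, its second row by 0.54 ± 0.17 (adjusted p = 0.012), and Nppa by 0.28 ± 0.12 (adjusted p = 0.0592), which became -0.18. Against the median over all features of 0.17, the difference was 0.11 for Nppa, 0.23 for Nppb and -0.61 for Npr1. With scan day as a fixed block Npr1 and Corin passed (-0.44 and -0.61, adjusted p = 0.00721 and 0.029), and Npr2 and both Nppb rows did not (adjusted p = 0.266, 0.0782 and 0.268). No scan day held both 8 and 21 weeks, so that fit cannot separate age from scan day except through the 78-week arrays. Fibroblast markers were higher in 2 and lower in 3 of 6 at 21 weeks, and their sums were 181 to 224 in females and 214 to 241 in males, below those of 8 weeks. Endothelial markers were likewise higher in 2 and lower in 3 of 7, with sums over 8 genes of 129 to 164 in females and 114 to 136 in males at 8 weeks and of 99.3 to 135 and 59.4 to 106 at 21 weeks. The part of these cells in the age differences was not tested. For 78 against 21 weeks 38.9% of all features passed. Npr1, Npr2, Npr3 and Corin were higher at 78 weeks by 0.23, 0.26, 0.72 and 0.49 (adjusted p = 0.0036, 0.00133, 7.4e-05 and 0.00147), and Nppa and Nppb differed by 0.18 and -0.04 (adjusted p = 0.239 and 0.834). Within the scan day that held both ages, with 4 rats of 78 weeks, Corin passed (0.67, adjusted p = 0.0342), while Npr1, Npr2 and Npr3 kept their direction but did not (0.23, 0.26 and 0.69, adjusted p = 0.229, 0.178 and 0.0661).

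**Figure D4:**
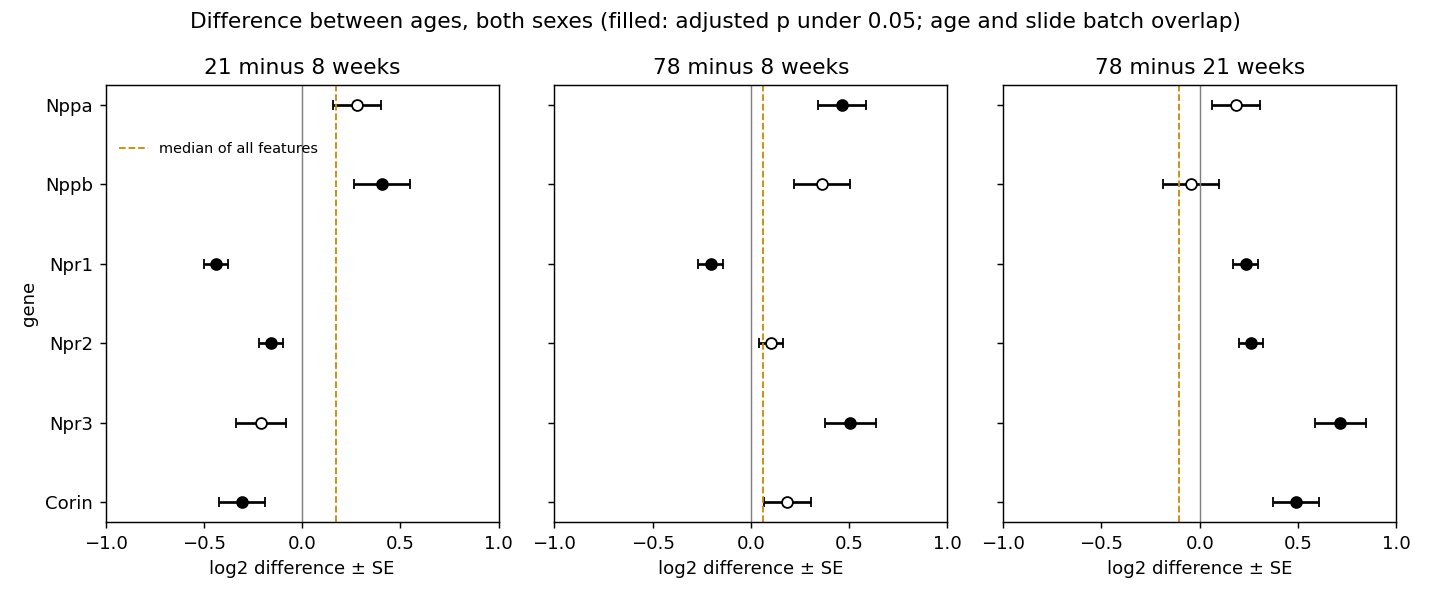
Log2 difference ± SE between ages for each gene over both sexes, from limma on 30 arrays, with filled points for an adjusted p under 0.05 and a dashed line at the median of all features. Npr3 (0.51 and 0.72) lies to the right in both comparisons with 78 weeks, and Npr1 lies to the left of 0 in both comparisons with 8 weeks (-0.44 and -0.20).

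Other genes of the pathway were read from 4 lists for the same pairs of groups. Between the sexes none of the genes measured in any list passed the test at any age. In the load and hypertrophy list the 2 genes with the smallest p were Lox and Acta1 at 8 weeks (-0.31 and -0.46). They were Timp1 and Ankrd1 at 21 weeks (-0.74 and -0.36), and Timp1 and Spp1 at 78 weeks (-0.56 and 0.59). In the list named peptide processing and clearance, 6 of 7 genes were measured. From 8 to 78 weeks, a comparison in which 12.6% of all features passed, 1 rose, Pam, the peptide amidating enzyme (0.27 ± 0.09, limma adjusted p = 0.0476), and none fell. Pam did not pass under quantile normalization, normexp correction or the raw median signal (adjusted p = 0.175, 0.124 and 0.0875), nor with scan day as a block or within 1 scan day (adjusted p = 0.2 and 0.0932). The median difference of the list was -0.01, against 0.06 over all features. Pcsk5 and Pcsk6, proprotein convertases of which the latter activates corin, differed by -0.73 and -0.37 from 8 to 21 weeks and by 0.50 and 0.21 from 21 to 78 weeks (adjusted p = 0.000284, 0.000294, 0.00794 and 0.0255). With scan day as a block only the 21-week fall of Pcsk6 among these 4 passed (-0.40, adjusted p = 0.0293). In the 21-week sex comparison, Furin, a convertase of the B-type precursor, differed by 0.28 ± 0.12 (adjusted p = 0.302).

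Of the genes of cyclic GMP signalling, 17 of 21 were measured. Their median difference from 8 to 78 weeks was -0.07, against 0.06 over all features. Of all features 12.6% passed, and of these 17 genes 1 rose and 5 fell. Those that fell most clearly were Rgs4, a brake on G protein signals that is a target of the cyclic GMP kinase in heart muscle (-0.82 ± 0.08, adjusted p = 1.65e-08), Gucy1b3, a subunit of the soluble guanylyl cyclase that nitric oxide activates (-0.45 ± 0.09, adjusted p = 0.00161), and Pde9a, a phosphodiesterase that breaks down cyclic GMP (-0.58 ± 0.15, adjusted p = 0.0108), which with scan day as a block was -0.39 and did not pass (adjusted p = 0.102). Rgs2, which acts downstream of the cyclic GMP kinase, rose by 0.38 ± 0.10 (adjusted p = 0.0132). From 8 to 21 weeks Pde1a, Pde3a and Pde5a, further phosphodiesterases, differed by -0.85, -0.95 and -1.29, and with scan day as a block by -0.71, -0.56 and -0.69, of which Pde1a alone passed. These depended on the background correction. Normexp correction turned the Pde5a value to 0.01 and left Pde3a at -0.07, and the raw median signal gave -0.12 and -0.17.

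In the load and hypertrophy list most genes differed. From 8 to 78 weeks 9 of its 12 genes rose and 2 fell, with a median of 0.52 against 0.06 over all features, of which 12.6% passed. Myh7, the fetal beta myosin heavy chain of the rodent ventricle, rose by 2.07 ± 0.16 (adjusted p = 4.25e-10). Spp1 (osteopontin) rose by 1.65 ± 0.17 and Ankrd1, a stretch-responsive ankyrin repeat protein, by 0.63 ± 0.07, while Lox, the collagen cross-linking lysyl oxidase, fell by 1.2 ± 0.11. Of the 15 regulators of peptide gene transcription measured among 17 listed, 2 rose and 1 fell. Gata4, a GATA factor of heart muscle, fell by 0.26 ± 0.07 (adjusted p = 0.00928), and Mef2c and Nfatc4 rose by 0.93 ± 0.30 and 0.34 ± 0.12 (adjusted p = 0.0378 and 0.0483). Both rises failed the test without the discordant arrays (0.87 and 0.27, adjusted p = 0.0808 and 0.131), and so did that of Rgs2 (0.31, adjusted p = 0.0529). With slide as a fixed block, where the age difference rests on the 1 slide with both ages, Rgs4, Myh7 and Ankrd1 passed (adjusted p = 0.00879, 0.0226 and 0.037). The other genes named for this pair of ages from the 4 lists did not. In the same comparison of ages, macrophage markers were higher in 3 of 5 and lower in none, endothelial markers higher in 1 and lower in 3 of 7, and of the 9 atrial markers Gja5 alone passed (0.36, adjusted p = 0.00154). Of 6 fibroblast markers none was higher and 2 were lower, Col1a1 (-1.2, adjusted p = 5.18e-08) and Col3a1 (-1.41, adjusted p = 2.53e-10), and the sums at 78 weeks, 137 to 224 in females and 174 to 267 in males, lay below all those at 8 weeks, 317 to 425. The part of these cells in the age differences was not tested.

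The relation of Nppa to other genes was examined rat by rat, as deviations from the mean of the same age and sex over 30 samples, for 6 genes. The transcript row of Nppa followed Sln, the atrial sarcolipin gene, with Pearson's r = 0.61 (permutation p = 0.00425, adjusted over the 6 relations p = 0.0255) and Spearman's rho = 0.72 (permutation p = 0.00011, adjusted p = 0.00066). Within the ages r was 0.66 at 8 weeks, 0.80 at 21 weeks and 0.49 at 78 weeks. Without the 2 samples farthest from the median of Nppa, r was 0.53 (permutation p = 0.0158, adjusted p = 0.0949), so that the adjusted call rested on those samples, and without the discordant arrays it was 0.72. The relation of Nppa and Nppb did not pass (r = 0.31, permutation p = 0.187, adjusted p = 0.555), and r was 0.11, -0.23 and 0.66 within the 3 ages. Under quantile normalization it was 0.44 and passed (adjusted p = 0.0351), and without the discordant arrays it was 0.03. The relations with Corin, Myl7, Myl4 and Dkk3 gave r between -0.22 and 0.18, none past the threshold.

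The second, opposite-strand Nppa row followed other genes. It was related to Myl7 (r = 0.77, permutation p = 0.00021, adjusted p = 0.00099, rho = 0.75) and Myl4 (r = 0.72, permutation p = 0.00033, adjusted p = 0.00099, rho = 0.61), and not to Sln (r = -0.18) or Nppb (r = 0.28). Without the 2 farthest samples r was 0.72 and 0.58 (adjusted p = 0.0175 for both), and within the 78-week rats it was 0.34 and 0.30. Quantile normalization turned both relations, to -0.53 and -0.29, so that neither direction can be read apart from the scaling of the arrays. With normexp correction Myl7 gave r = 0.59 (adjusted p = 0.0258) and Myl4 r = 0.32 (adjusted p = 0.324), while Sln at r = -0.47 (adjusted p = 0.032) and Dkk3 at r = -0.43 (adjusted p = 0.0042) passed there.

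**Figure D5:**
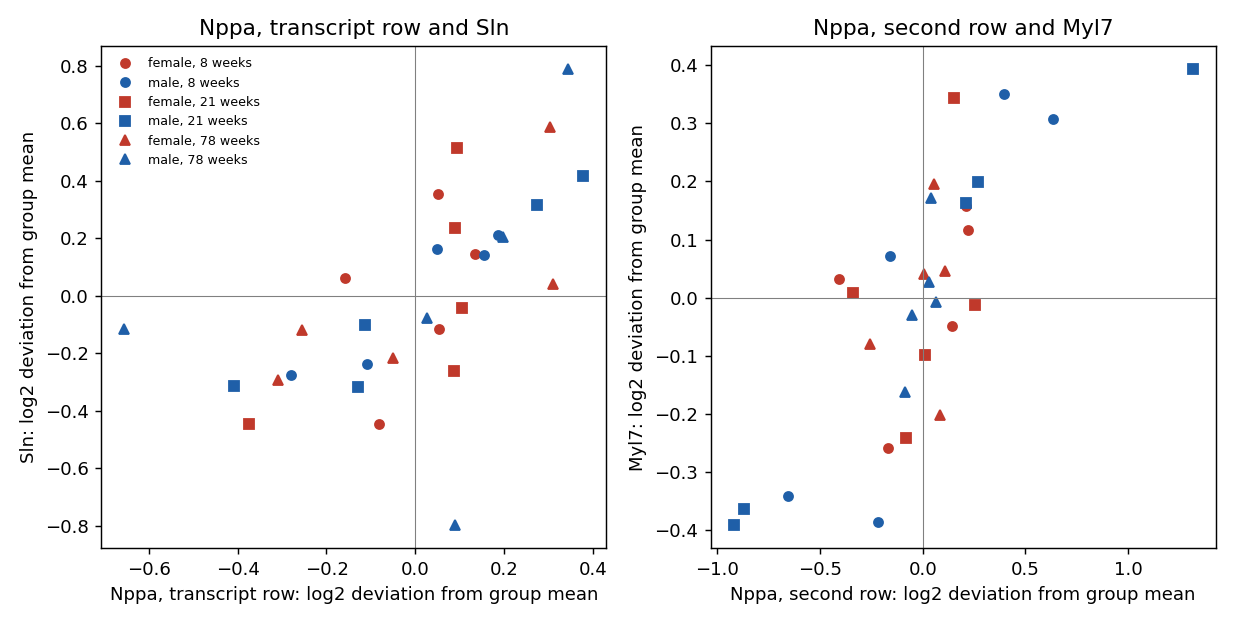
Log2 deviation of each of 30 rats from the mean of its age and sex group, for the Nppa transcript row against Sln (left, r = 0.61) and for the second Nppa row against Myl7 (right, r = 0.77), with red for females, blue for males, and circles, squares and triangles for 8, 21 and 78 weeks. The right-hand relation is widest among the 21-week males and reversed to -0.53 under quantile normalization.

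The genes whose deviations most resembled those of a member were sought among 8633 gene names with bright, unsaturated rows, as a description over 30 samples that share arrays and scaling. For Nppa these were Cdhr1 (r = 0.83), Sytl2 (r = 0.79) and RGD1311744 (r = 0.77). For Nppb they were Tnfrsf12a (r = 0.87), which encodes the Fn14 receptor and stands in the load list, Akip1 (r = 0.84) and Ptpn18 (r = 0.84). For Npr3 they were Sdc2 (r = 0.84), Epha4 (r = 0.81) and Spock2 (r = 0.81), and for Corin they were Brpf1 (r = 0.86), Rev3l (r = 0.80) and Kcnj12 (r = 0.79). The second Nppa row was nearest to Rpl35, Cox8b and Atp5j (r = 0.92 to 0.93), a ribosomal protein gene and a pair of mitochondrial genes.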

How the data were processed

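RNA of 30 hearts was labelled with Cy3 and hybridised to Agilent 4 x 44k arrays, and the study's methods name Feature Extraction, spot medians, averaging of probes per gene, removal of genes that were not expressed and scaling to the 75th percentile. The deposited tables hold 1 signal value per row and rat, on a linear scale, relative to the rat's 75th percentile over the rows of that table. The deposited scanner files give the intensity of each spot, here the processed signal, the mean and median signal, the median background and flags. At 21 weeks male columns of the table name the sex and age only, so leaving out single rats used scanner values.

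Rows of the tables were matched to probes by value within 0.002 log2 (99.7% at each age). Female and male rats were compared on log2 values with limma 3.58.1 (R 4.3.3, statmod 1.5.0), 2 groups and no covariates. Ages and interactions were fitted over 30 arrays on processed signals scaled to the 75th percentile of non-control spots, with slide as a random block (consensus correlation 0.000918), and 28825 features were tested. Exact permutation tests used all assignments, with a smallest p of 0.00794, and relations used 100000 permutations within groups. Scripts were tested on simulated data. Python 3.11.15, scipy 1.17.1 and pandas 2.3.3 were used.

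Genes named were the 7 members, genes called in each pathway list (at most 4 by p, or 2 with none called) and the 3 genes most like Nppa, Nppb, Npr3 and Corin. Marker genes and a few further list genes were chosen after their values were seen. Not every list gene that this rule gave is named, above all for the comparisons of the sexes. The fixed rule took as reference the row well above background and unsaturated on the most arrays, which for Nppa was the opposite-strand row because the transcript row was saturated on 1 array. The closing section counts members by that rule. The report gives Nppa by its transcript row, an alternative chosen after seeing the data, and names the opposite-strand row as the second row. Members and lists were chosen with earlier results of these data known. Same-numbered females and males were not treated as pairs.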

Additional observations from a re-analysis of the deposited data

Results flagged for a closer look

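In groups of 5 rats, a sample was singled out where its gap to the nearest other was above Dixon's 95% critical value of 0.71 of the group's range. Of 48 groups of member rows tested, 4 had such a sample, and chance gives about 1 in 20. The Nppa signal of female replicate 1 at 21 weeks was 140.4, against 192.4 to 195.6 in the other 4 females. The second Nppa row of female replicate 3 at 78 weeks was 0.324, against 0.392 to 0.415. The Nppb signal of female replicate 4 at 78 weeks was 45.6, against 96.1 to 110.9 in the other females, and that of male replicate 3 at 78 weeks, a discordant array, was 82.4 against 123.4 to 142.1 in the other males. No cause was tested for any of them.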

How the results depend on the processing

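No member passed between the sexes, or in the change of that difference with age, under any alternative run or with any 1 rat left out (range 0 to 0). By the rule's rows, 2, 5 and 4 of the 7 members passed for 78 minus 8, 21 minus 8 and 78 minus 21 weeks, with ranges of 1 to 3, 3 to 5 and 4 to 4 when 1 rat was left out. Of all features, 12.6%, 48.2% and 38.9% passed in the main fits. Over all alternatives the rows called for 78 minus 8 weeks ranged from 175 to 12992, so the member counts cannot be read apart from that range. For 78 minus 8 weeks the count of members was 5 with normexp correction, 4 with the raw median signal, 1 under quantile normalization, 1 with slide and 1 with scan day as a fixed block. With scan day as a block it was 2 for 21 minus 8 weeks, and within 1 scan day it was 1 for 78 minus 21 weeks. It was 1 without female replicate 1 or male replicate 3 of 8 weeks, or female or male replicate 1 of 78 weeks. For 21 minus 8 weeks it was 3 without female replicate 1 or 3 or male replicate 2 of 8 weeks, or male replicate 2 of 21 weeks. The 2 relations called were 0 under quantile normalization, 1 with the transcript row and 3 with normexp correction (Sln, Myl7 and Dkk3, with Myl4 lost). The cause was not tested. Of single results, outside leave-one-out, 989 kept direction and call, 64 lost and 11 gained a call and 28 reversed.

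Under quantile normalization the reversed values were -0.0494 and 0.12 for Nppa between the sexes at 8 and 21 weeks, -0.0151 for Npr1 at 78 weeks, -0.18 for Nppa and -0.0478 for Pam in 21 minus 8 weeks, and 0.33 and -0.0525 for the first and second Nppb rows in 78 minus 21 weeks. The correlations were -0.0988, -0.53 and -0.29 for the second Nppa row with Nppb, Myl7 and Myl4, and 0.42 and 0.0925 for the transcript row with Myl7 and Myl4. With normexp correction, where 20 spots of extreme local background were given the median background of their array, they were -0.15 for Npr3 at 21 weeks, -0.019 for the second Nppa row at 78 weeks, 0.078 and -0.00937 for the Nppb rows in 78 minus 21 weeks, 0.00686 for Pde5a and 0.14 for Rest in 21 minus 8 weeks, -0.0543 for Rest in 78 minus 21 weeks and r = -0.0882 for the second Nppa row with Nppb. With the raw median signal they were -0.12 for Npr3 at 21 weeks, -0.0128 for the second Nppa row at 78 weeks, 0.0034 for Tbx5 at 8 weeks, 0.0391 and -0.00545 for the Nppb rows and -0.00955 for Rest in 78 minus 21 weeks and 0.0496 for Rest in 21 minus 8 weeks. Without the discordant arrays Npr1 was -0.0174 at 78 weeks.

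Leaving out 1 rat reversed the sex difference of Nppa at 8 weeks (-0.0576 to 0.067), Npr3 at 8 weeks (-0.17 to 0.0223), and the second Nppa row (-0.00722 to 0.0823), Npr1 (-0.0017 to 0.0648) and Corin (-0.0031 to 0.284) at 78 weeks, and in 78 minus 21 weeks Nppb (-0.0955 to 0.0699) and its second row (-0.0713 to 0.137). Npr2 and Corin in 21 minus 8 weeks lost the call without any of 12 and 9 of the 30 rats (adjusted p up to 0.0835 and 0.0774).

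Same-numbered rats of both sexes shared a slide, but the labels give only the number. They were not treated as pairs, since the correlation of their deviations (median 0.05, 0.07 and 0.16 at the 3 ages) exceeded 0.1 in 1, 2 and 4 of 5 pairs and not in all. At 78 weeks 4 of 5 females correlated best with the male of their number, a hint from the data and not the design. The block gave Nppa -0.54 (adjusted p = 0.727) at that age. With the replicate block the members passing stayed at 0 between the sexes and at 2, 5 and 4 between ages, while the rows called over the array went from 28 to 5, 14 to 5 and 0 to 0 between the sexes. Over all alternatives these rows ranged from 5 to 63, 5 to 42 and 0 to 9, and those of 78 minus 8, 21 minus 8 and 78 minus 21 weeks from 175 to 12992, 5108 to 22781 and 2524 to 12308. The number of arrays and the signal over background limit the precision, most of all for Nppc.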
